A study of Mus musculus with 24 samples.

Results

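The main effect of PLX3397 was described over 20 mice with traumatic brain injury (TBI), 10 that were given PLX3397 and 10 that were not. They were chosen by the treatment in their labels, 20 of the 24 mice of the series, and no mouse was left out. TBI was made by controlled cortical impact (CCI) in male mice that the labels give as C57BL6N aged 12 to 16 weeks (the methods give another C57BL/6 substrain and a narrower age range), and brain tissue was taken at 5 days post injury (5 dpi). The mice not given PLX3397 were the groups Vehicle and Anakinra, and those given it were the groups PLX3397 and PLX3397+Anakinra, with 5 mice in each group. All 20 mice had the injury, so the comparison is between injured brains. PLX3397 was given in food at 290 mg/kg from 90 min after CCI. Anakinra was injected subcutaneously at 100 mg/kg, first at 5 min after CCI and then daily, and by the methods the injections ended before the day of tissue collection. The other 4 mice were sham-operated and are used here only as a reference level.

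PLX3397 inhibits CSF1R, the receptor that microglia and other macrophages need for survival, and also inhibits the related receptor kinases KIT and FLT3. Anakinra is a recombinant form of the interleukin-1 receptor antagonist. Neurons, astrocytes, the oligodendrocyte lineage and the vessel wall carry little or no CSF1R. With 10 mice on each side, small changes of this kind can be measured against the spread between mice.

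The tissue was the injured quadrant of the brain, named cortex in the labels and described in the methods as cortex with striatum, dorsal hippocampus and thalamus. The striatal marker Ppp1r1b was present in all 20 libraries, with 513 to 917 TPM, and the cortical marker Tbr1 with 33.9 to 51.8 TPM, so both regions were in the samples. TPM, a measure of transcript abundance, are scaled by gene length and to the same total in each library. The number of reads behind them is unknown, and between 22524 and 23249 genes were above 0 TPM in each TBI library. The summed share of the genes on 7 immune cell lists was 2.66% to 4.09% of all TPM in the mice not given PLX3397 and 1.38% to 2.62% in the mice given it. The ranges of this share did not overlap, and the sham mice lay at 0.610% to 0.637%. The mice of the Vehicle group are the only ones whose numbers end in the letter B, a difference that cannot be told apart from the treatment. The fold changes on top of Anakinra use none of them, but the spread behind the p-values was estimated from all 20 TBI mice.

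The target gene was looked at first. Csf1r lay between 194 and 247 TPM in the mice not given PLX3397 (median 222) and between 71.0 and 120.5 TPM in those given it (median 80.1), and the sham mice lay between 60.5 and 62.5 TPM. The groups did not overlap, and the highest value among the mice given the drug, 120.5 TPM, was that of PLX3397 mouse J02. The log2 fold change was −1.43 ± 0.07 (SE, 10 versus 10 mice, limma adjusted p = 7.86e-12). In bulk tissue, fewer cells of a type and less RNA per cell cannot be told apart, here or in any result that follows. Kit was measured at 20.4 TPM (median) without PLX3397 and 20.6 TPM with it, and Flt3 at 4.81 and 4.87 TPM. Neither passed the test (adjusted p = 0.269 and 0.517). Of the CSF1R ligands, Il34, which neurons make, rose by 0.13 ± 0.04 on the log2 scale (adjusted p = 0.0235) and Csf1 fell by 0.27 ± 0.07 (adjusted p = 0.00656). The call of Il34 was lost when TPM were recomputed without the immune genes and in the fits without Vehicle mouse J19B or PLX3397 mouse J01.

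Among 17286 genes tested, PLX3397 raised 1556 (9.0% of all tested) and lowered 1865 (10.8%). With TPM recomputed without the genes of the immune lists, 972 were raised and 1975 lowered, so that the share of calls that were higher went from 45.5% to 33.0%. The directions differed in size. Of the genes called higher, 1425 (91.6%) changed by less than 1.2-fold, and their median log2 fold change was 0.16, or 1.12-fold. Of the genes called lower, 659 (35.3%) changed by less than 1.2-fold, with a median of −0.37, and 216 fell by more than 2-fold. The lncRNA H19 was the only called gene that rose by more than 2-fold. The plot of sizes shows the higher calls stacked in the smallest class and the lower calls spread over all 4.

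**Figure D1:**
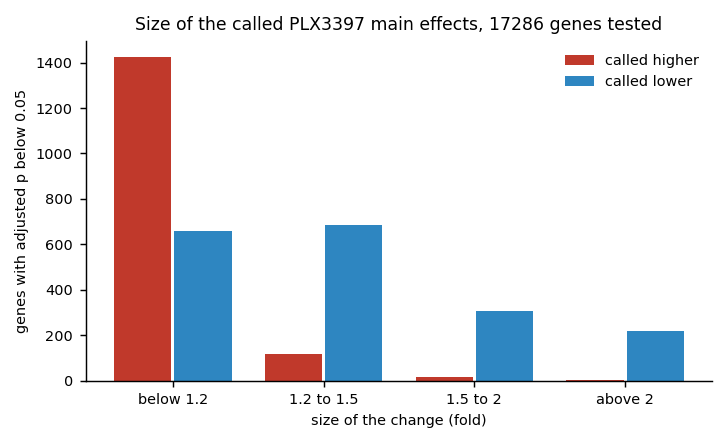
Number of genes called by the PLX3397 main effect (vertical axis; adjusted p below 0.05) in 4 classes of fold change (horizontal axis), with the genes called higher in red and lower in blue. The class below 1.2-fold holds 1425 of the 1556 genes called higher and 659 of the 1865 called lower.

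The same difference appeared in stricter readings. The values of the 10 and 10 mice did not overlap at all for 17 higher genes (0.0983% of those tested) and 425 lower genes (2.46%). With the limits used in the study, a ratio of means above 2 and a difference above 4 TPM at an unadjusted p below 0.05, 1 higher gene (0.00579%) and 206 lower genes (1.19%) were left. The higher gene was H19. Small increases are outside those limits by construction, and it is these that are described here.

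Many genes of neurons rose by a small amount. Of 292 tested members of 12 neuronal lists, 91 (31.2%) were called higher and 4 were called lower, beside 9.0% and 10.8% of all genes. Their median log2 fold change was 0.14, with the middle 50% of members between 0.09 and 0.18, against 0.02 over all genes. Of the 91, all but 1 rose by less than 1.5-fold. With TPM recomputed without the immune genes, the median of the neuronal members was 0.12 and that of all genes 0.0022, and 60 neuronal members were called higher. The share of immune genes moved with the drug as given above.

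The pan-neuronal list, genes that most neurons express, had 18 of 24 members called higher and none lower. Nefl encodes the light neurofilament subunit of axons. It lay between 308 and 377 TPM without PLX3397 (median 348), between 363 and 447 TPM with it (median 417) and between 568 and 618 TPM in sham mice. The ranges overlapped in part, and every mouse given the drug was below every sham mouse. Its log2 fold change was 0.25 ± 0.04 (limma adjusted p = 0.000185). Nsf, the ATPase that takes apart SNARE complexes after membrane fusion, was the pan-neuronal gene without overlap, with 492 to 580 TPM without the drug and 585 to 663 TPM with it. Its log2 fold change was 0.18 ± 0.03 (limma adjusted p = 0.000423). Thy1, a surface protein of projection neurons, rose by 0.18 ± 0.03, and Syt1, a calcium sensor of synaptic vesicles, by 0.19 ± 0.04. Rbfox3, the gene of the nuclear marker NeuN, rose by 0.15 ± 0.05 (limma adjusted p = 0.0283) from a median of 69.3 to 78.4 TPM. Its call was lost in 8 of the 20 fits without 1 mouse, and when TPM were recomputed without the immune genes. Map2, a microtubule protein of dendrites, was at 0.14 ± 0.05 and did not pass (adjusted p = 0.0674).

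Genes of the synaptic vesicle cycle gave 19 of 34 called higher and none lower (median 0.16). Stx1a, a membrane SNARE of the presynaptic terminal, lay between 150 and 190 TPM without PLX3397 (median 165), between 170 and 218 TPM with it (median 196) and between 263 and 303 TPM in sham mice. The lowest mouse given the drug, PLX3397 mouse J02 with 170 TPM, lay among the mice not given it. The log2 fold change of Stx1a was 0.23 ± 0.04 (limma adjusted p = 7.64e-05). Rab3a, the small GTPase of synaptic vesicles, rose by 0.23 ± 0.04 from a median of 657 to 767 TPM. Syp, the vesicle protein synaptophysin, rose by 0.19 ± 0.04, Cplx1, which clamps vesicle fusion, by 0.21 ± 0.04, and Snap25 by 0.16 ± 0.04.

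Markers of neuron classes had similar medians. In the list of excitatory neurons, 9 of 25 genes were called higher and none lower (median 0.16). Slc17a7, the vesicular glutamate transporter of cortical excitatory neurons, lay between 641 and 784 TPM without the drug (median 701), between 695 and 954 TPM with it (median 838) and between 1067 and 1252 TPM in sham mice. Its log2 fold change was 0.21 ± 0.05 (limma adjusted p = 0.00317). Camk2a rose by 0.22 ± 0.05, and Tbr1, a transcription factor of deep-layer neurons, by 0.25 ± 0.06. In the GABAergic list, 6 of 24 genes were called higher and none lower (median 0.15). Sst, the neuropeptide somatostatin, rose by 0.27 ± 0.07 (limma adjusted p = 0.00669), from 449 to 648 TPM (median 566) without the drug to 580 to 745 TPM (median 677) with it. Over the 20 fits without 1 mouse the count ran from 3 (without Vehicle J19B) to 8. Gad1 and Gad2, the GABA-synthesizing enzymes, were at 0.15 ± 0.06 and 0.08 ± 0.07 and did not pass (adjusted p = 0.0779 and 0.473).

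Receptors and channels followed. Of 32 genes of glutamate receptors and their partners, 10 were called higher, of 19 GABA receptor genes 9, and of 43 voltage-gated channel genes 12, with none lower in the 3 lists. Over the fits without 1 mouse these counts ran from 7 to 18, from 4 to 12 and from 5 to 19, all highest without Vehicle J17B. The lists had medians of 0.14, 0.16 and 0.12. Grin1, the obligatory subunit of NMDA receptors, rose by 0.20 ± 0.05 (adjusted p = 0.00398), from a median of 320 to 358 TPM. Scn1a, the sodium channel of fast-spiking interneurons, rose by 0.25 ± 0.05 (adjusted p = 0.00155). Grin2b, another NMDA receptor subunit, rose by 0.60 ± 0.14 and the potassium channel gene Kcnh7 by 0.51 ± 0.13, the highest values of their lists. Grin2b varied widely among mice, from 14.3 to 48.5 TPM without the drug and from 32.2 to 46.0 TPM with it. Its log2 fold change was 0.26 without Anakinra and 0.93 on top of it.

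Lists of subcortical neurons had similar medians. None of 21 genes of striatal projection neurons was called (limma), at a median of 0.15. An unadjusted p below 0.05 was reached by 8 of the 21, beside 5728 of all 17286 genes, a similar share. The mean level of this list differed between mice by more than that of the pan-neuronal list (SD within the 10 mice given the drug of 0.188 versus 0.0711 on the log2 scale), and PLX3397 mouse J02 was lowest. Without this mouse, 9 striatal genes were called higher. Of 17 thalamic genes, 7 were called higher and 1 lower, and of 22 hippocampal genes 5 and 1. Over the fits without 1 mouse the higher counts ran from 3 to 8 and from 2 to 6. The exception in the thalamic list was Cd24a, a surface protein of young neurons that immune cells express too, at −0.41 ± 0.08 (adjusted p = 0.00142).

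Activity genes of neurons gave no call and injury genes gave calls in both directions. None of 23 immediate early genes was called in either direction (limma; median 0.04). An unadjusted p below 0.05 was reached by 5 of them, a smaller share than the 5728 of 17286 over all genes. In the fits without 1 mouse, 0 to 4 were called higher, and 4 without Vehicle J17B. Without Anakinra none was called and 10 were above 0 (limma; median −0.02), and on top of Anakinra 20 were above 0 (median 0.13) and 3 were called higher, Egr3, Egr4 and Homer1, which were named after their values were seen. Fos was measured at a median of 17.9 TPM without and 18.3 TPM with the drug, and Arc at 47.7 and 51.6 TPM. In the injured neuron list, 3 of 22 genes were called higher and 2 lower, near the shares over all genes, and the higher count ran from 1 to 4 in the fits without 1 mouse. The higher genes were Npy, a neuropeptide, at 0.15 ± 0.05, Sez6l at 0.15 ± 0.05 and Stmn4, of the stathmin family, at 0.09 ± 0.02. The calls of Npy and Sez6l were lost in 13 and 10 of the 20 fits without 1 mouse. With TPM recomputed without the immune genes all 3 calls were lost, and those of Stmn4 and Npy also under the other scalings tried. The fits of the mice without or with Anakinra alone, from fewer mice, called neither Stmn4 nor Sez6l. Npy was at 0.285 without Anakinra and 0.017 on top of it. Atf3, a transcription factor induced in injured neurons and in other stressed cells, lay between 18.5 and 34.7 TPM without the drug (median 30.2), between 12.6 and 26.3 TPM with it (median 20.7) and between 0.755 and 2.06 TPM in sham mice. It fell by 0.47 ± 0.10 (limma adjusted p = 0.00283). Sprr1a and Gal, other genes of injured neurons, were at −0.16 ± 0.19 and −0.34 ± 0.18 and did not pass (adjusted p = 0.615 and 0.188).

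**Figure D2:**
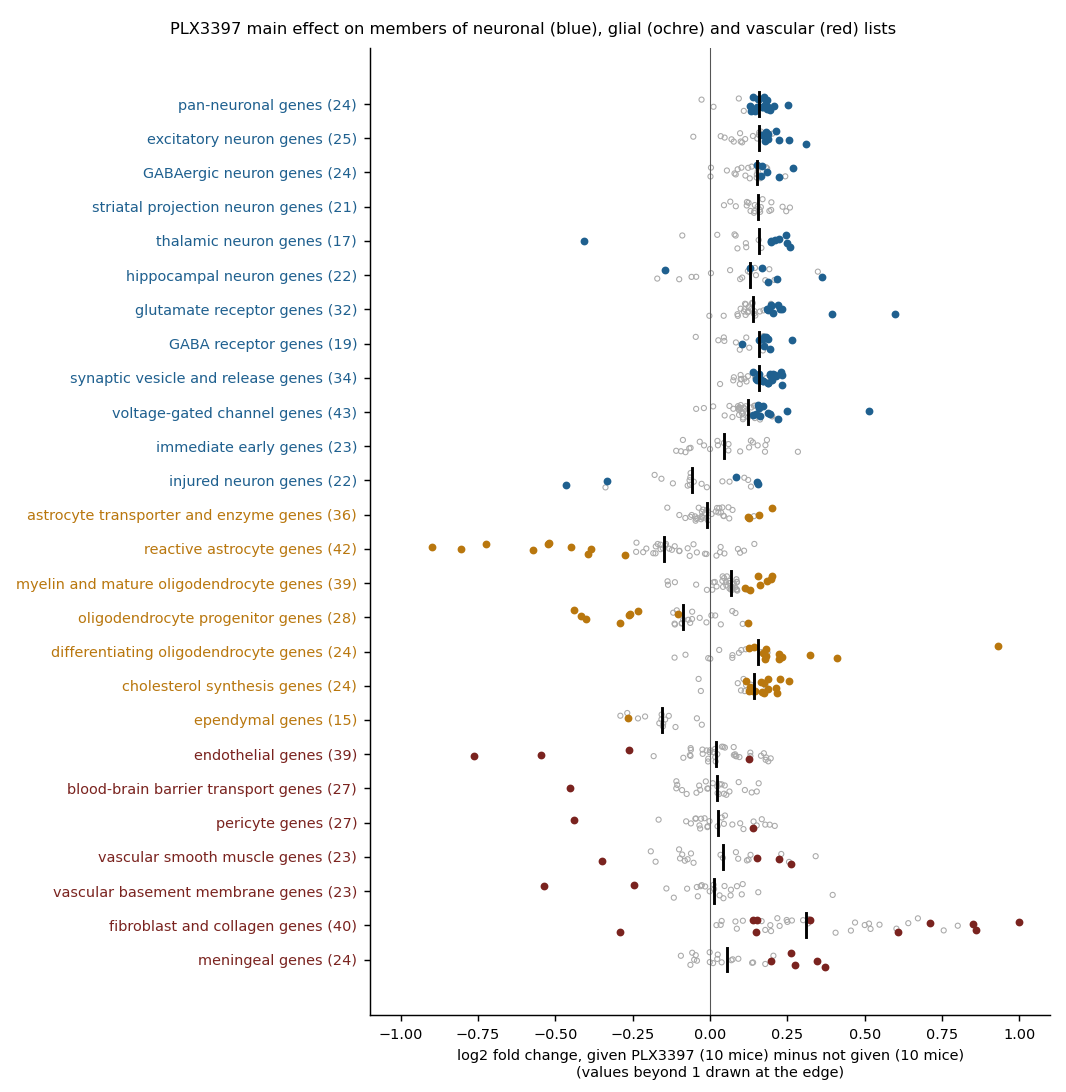
Log2 fold change of each tested gene (points; filled where adjusted p is below 0.05) in 26 lists, with the number tested in brackets and the list median as a black bar; values beyond 1 are drawn at the edge. The neuronal medians lie near 0.15 except for the immediate early and injured neuron lists, the endothelial, barrier and basement membrane medians lie near 0, and the fibroblast and collagen list is the widest.

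In the main effect, the oligodendrocyte lineage split between its stages. Differentiating oligodendrocytes are cells that have left the progenitor state and begin to wrap axons. Of their 24 genes, 12 were called higher and none lower (median 0.15). Of 28 genes of progenitors, 8 were called lower and 1 higher (median −0.09). Beside them, 9.0% of all genes were called higher and 10.8% lower. The progenitor list had 7 lower calls without Anakinra (median −0.15), and 4 lower and 1 higher on top of it (median −0.01). The differentiating list had 2 higher and 1 lower without Anakinra (median 0.08), and 9 higher on top of it (median 0.20).

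The lncRNA 9630013A20Rik, a marker of newly formed oligodendrocytes (GRCm38.p6, chr14:84458724-84476424), was the gene of this lineage with the largest change. It lay between 2.68 and 6.91 TPM in the 10 mice not given PLX3397 (median 5.53) and between 7.50 and 14.1 TPM in the 10 mice given it (median 10.6), and sham mice lay between 2.07 and 4.35 TPM. The groups did not overlap. The log2 fold change was 0.93 ± 0.11 (1.91-fold, limma adjusted p = 2.63e-06). Enpp6, an early marker of the same stage, rose by 0.41 ± 0.08 (adjusted p = 0.000654), from a median of 14.2 to 19.8 TPM against 6.28 TPM in sham mice. The log2 fold change of Enpp6 was 0.23 without Anakinra and 0.595 on top of it. Sirt2, a deacetylase abundant in myelinating cells, rose by 0.22 ± 0.03 (adjusted p = 2.7e-05). Fyn and Ust, which neurons express as well, rose by 0.18 ± 0.03 and 0.23 ± 0.04. Bcas1 and Myrf, the other defining genes, were at 0.10 ± 0.04 and 0.07 ± 0.05 and did not pass (adjusted p = 0.061 and 0.363).

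Pdgfra, the growth factor receptor that defines progenitors (chr5:75151322-75198206), lay between 26.8 and 34.0 TPM without PLX3397 (median 29.5) and between 22.3 and 26.4 TPM with it (median 24.4), and sham mice lay between 21.9 and 24.7 TPM. The groups did not overlap, and the mice given the drug lay in and just above the sham range. It fell by 0.29 ± 0.04 on the log2 scale (limma adjusted p = 4.94e-05). Cspg4, the proteoglycan NG2 of progenitors and pericytes, fell by 0.44 ± 0.07 (adjusted p = 0.000115), the matrix gene Matn4 by 0.42 ± 0.07 (adjusted p = 0.000306) and C1ql1 by 0.40 ± 0.09 (adjusted p = 0.00176). Lhfpl3 fell by 0.10 ± 0.03 (adjusted p = 0.0312). Bcan, a matrix protein that astrocytes express too, was the gene called higher, at 0.12 ± 0.04. The calls of Lhfpl3 and Bcan were lost in 7 and 13 of the 20 fits without 1 mouse. Many progenitors divide after injury, and the cell cycle genes, which microglia and other dividing cells share, fell in the same mice (29 of 32 called lower, median −0.46). Mki67 had a median of 11.1 TPM without and 6.64 TPM with the drug. The part of dividing immune cells in these values was not tested.

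Mature myelin genes changed little. Of 39 genes, 7 were called higher and none lower (median 0.07). Mbp, the myelin basic protein, rose by 0.18 ± 0.04 (adjusted p = 0.00111), from 1547 to 1813 TPM (median 1708) to 1716 to 2085 TPM (median 1956), and Mobp rose by 0.13 ± 0.03. Mog, a surface protein of myelin, was at 0.05 ± 0.03 and did not pass (adjusted p = 0.276).

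Most genes of cholesterol synthesis rose. The brain makes its own cholesterol, mainly in astrocytes and myelinating oligodendrocytes, and the enzymes are switched on together by the factor SREBF2 when sterol is low. Of 24 genes, 15 were called higher and none lower (median 0.14). Insig1, which holds back SREBF2 and is itself its target, lay between 50.8 and 70.8 TPM without the drug (median 62.5), between 65.4 and 79.9 TPM with it (median 72.4) and between 83.0 and 95.3 TPM in sham mice. The overlap came from the Anakinra group, since the highest Vehicle mouse had 61.5 TPM. Insig1 rose by 0.23 ± 0.04 (limma adjusted p = 0.000298), Fdft1, squalene synthase, by 0.19 ± 0.03 (adjusted p = 0.000219), and Lss and Fdps, further enzymes of the path, by 0.17 ± 0.04 and 0.16 ± 0.04. Hmgcs1, a synthase early in the path, rose by 0.17 ± 0.05 (adjusted p = 0.0248).

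The promoters of this list were searched because 15 of its 24 genes were called higher. RefSeq windows from 250 bases before to 50 bases after the start (GRCm38.p6) were at hand for 17 of the 24 genes. The sterol regulatory element, written TCACNCCAC and searched on both strands, was in 1 of the 17 windows, that of Hmgcs1, and in 1.44% of the 27025 genes with a window. The CCAAT box, the site of the factor NF-Y that works beside SREBF2, was searched as CCAAT on both strands. It was in 16 of the 17 windows, and in 42.0% of the 12783 windowed genes that were tested here. Among the 9 windowed genes of the list that were called higher it was in 8. Members that were not called had it as well. A match is only a match of letters, and whether these sites are used in this tissue was not measured. The windows of Hmgcs1 (chr13:119690101-119690400, plus strand), with 1 sterol element and 4 CCAAT boxes, and of Insig1 (chr5:28071162-28071461, plus strand), with 1 CCAAT box, are given with the matches in capitals.
Hmgcs1: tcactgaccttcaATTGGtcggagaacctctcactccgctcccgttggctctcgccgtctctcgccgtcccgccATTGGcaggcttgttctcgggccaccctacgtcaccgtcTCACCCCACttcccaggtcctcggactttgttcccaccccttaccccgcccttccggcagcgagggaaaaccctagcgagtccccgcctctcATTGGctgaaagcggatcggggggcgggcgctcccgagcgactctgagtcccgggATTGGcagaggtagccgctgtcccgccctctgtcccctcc
Insig1: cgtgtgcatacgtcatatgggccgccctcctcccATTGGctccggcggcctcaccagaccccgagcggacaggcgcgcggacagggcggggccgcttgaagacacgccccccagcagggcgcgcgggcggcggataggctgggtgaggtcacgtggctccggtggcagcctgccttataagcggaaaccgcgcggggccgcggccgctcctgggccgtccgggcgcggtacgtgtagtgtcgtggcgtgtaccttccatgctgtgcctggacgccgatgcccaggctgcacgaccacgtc

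**Figure D3:**
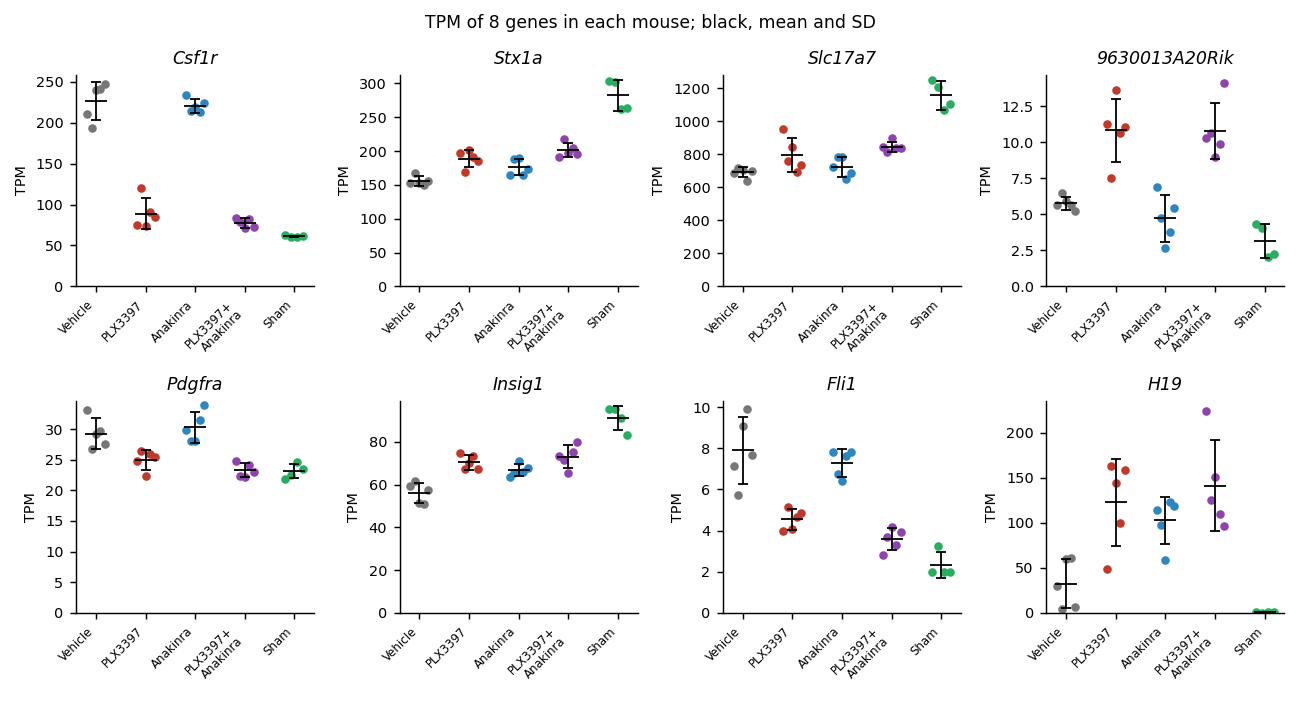
TPM of 8 genes (vertical axes, from 0) in each mouse of the 5 groups (points), with the group mean and SD in black. Both groups given PLX3397 lie below the Vehicle and Anakinra groups for Csf1r, Pdgfra and Fli1 and above them for 9630013A20Rik. Stx1a, Slc17a7 and Insig1 overlap in part. H19 is near 0 in sham mice and lowest among injured mice in 2 Vehicle mice.

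Astrocyte genes showed no common shift in the main effect. Of 36 astrocyte transporter and enzyme genes, 4 were called higher and none lower (median −0.01). Without Anakinra 11 of the 36 were above 0 (median −0.05, 1 called higher). On top of Anakinra 30 were above 0 (median 0.05, 4 called higher). Aqp4, the water channel of astrocyte endfeet, had a median of 191 TPM without and 208 TPM with the drug, Slc1a2, the main glutamate transporter, 702 and 693 TPM, and neither passed (adjusted p = 0.735 and 0.911). Aldoc, a glycolytic enzyme of astrocytes, rose by 0.16 ± 0.03 (adjusted p = 0.000904), and Ntsr2 by 0.20 ± 0.05.

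Among 42 reactive astrocyte genes, 10 were called lower and none higher (median −0.15). The members that fell were not the defining ones. Gfap, the intermediate filament of reactive astrocytes, lay between 1437 and 2437 TPM without PLX3397 (median 1834) and between 1576 and 1955 TPM with it (median 1833), against 106 to 122 TPM in sham mice. The medians were nearly equal, at a log2 fold change of −0.04 ± 0.07 (adjusted p = 0.727), and Vim and Serpina3n were at −0.22 ± 0.09 and −0.17 ± 0.09 and did not pass either (adjusted p = 0.111 and 0.181). The steepest falls were those of the proteasome subunit Psmb8 at −0.90 ± 0.09, the proteoglycan Srgn at −0.81 ± 0.09, the class I MHC genes H2-D1 and H2-T23 at −0.72 ± 0.07 and −0.52 ± 0.05, and the chemokine Cxcl10 at −0.57 ± 0.11. Microglia and leukocytes express these genes too. In the same mice 129 of 148 immune genes were called lower and none higher (median −0.80), so that the cell source of these members was not separated. Ependymal genes gave 1 lower call in 15, that of Rarres2 at −0.27 ± 0.08 (median of the list −0.16), lost in 5 of the fits without 1 mouse, which gave 0 to 4 lower calls.

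Endothelial genes were close to level. Of 39 genes, 1 was called higher and 3 lower (median 0.02), with 1 or 2 higher and 3 to 5 lower in the fits without 1 mouse, and 5 lower without Vehicle J17B. Cldn5, the tight junction protein of brain endothelium, lay between 74.8 and 108 TPM without the drug (median 89.4) and between 70.8 and 105 TPM with it (median 87.5), a log2 fold change of −0.02 ± 0.07 (adjusted p = 0.84). Pecam1 was at 0.09 ± 0.06 and Cdh5 at 0.16 ± 0.08, and neither passed (adjusted p = 0.301 and 0.14). The 3 lower genes, Fli1, Icam1 and Ets1, are all expressed by leukocytes as well. Fli1, an ETS transcription factor, lay between 5.72 and 9.90 TPM without the drug (median 7.65) and between 2.79 and 5.13 TPM with it (median 4.02), without overlap, and fell by 0.76 ± 0.08 (limma adjusted p = 2.37e-07). Icam1, an adhesion molecule for leukocytes, fell by 0.55 ± 0.09 (adjusted p = 7.47e-05) from a median of 16.8 to 11.3 TPM against 2.66 TPM in sham mice. Adgrf5, a receptor of capillary endothelium, was the gene called higher, at 0.12 ± 0.03.

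Of 27 genes of transport at the blood-brain barrier, Slc40a1, an iron exporter that macrophages share, was the only one called, at −0.45 ± 0.10 (limma; median of the list 0.02). The glucose transporter Slc2a1, the lipid transporter Mfsd2a and the efflux pump Abcb1a were at 0.09 ± 0.06, −0.04 ± 0.05 and −0.01 ± 0.04, and none passed (adjusted p = 0.303, 0.683 and 0.944). Pericyte genes had 1 call in each direction among 27, Vtn at 0.14 ± 0.03 and Cspg4 as above, and Pdgfrb was at −0.01 ± 0.08 (adjusted p = 0.964). The higher calls ran from 1 to 4 in the fits without 1 mouse, with 4 without Vehicle J01B. Of 23 basement membrane genes 2 were lower, the laminin receptor Itga6 at −0.54 ± 0.04 (adjusted p = 3.57e-09; medians 37.7 and 25.6 TPM, without overlap) and Col15a1 at −0.24 ± 0.08, a call lost in 7 of the 20 fits without 1 mouse. Among 23 smooth muscle genes 3 were higher and 1 lower, with 1 higher without PLX3397 mouse J20 and 0 to 2 lower over the fits without 1 mouse. Without Anakinra 16 of the smooth muscle genes were above 0 (median 0.10), and on top of it 6 were (median −0.19). The basement membrane list had 16 and 3 above 0 in the same comparisons (medians 0.08 and −0.11). With Vehicle J17B and J20B both left out, the smooth muscle list gave 1 higher and 2 lower (median −0.03). That choice was made after the values were seen. Tpm1, a tropomyosin of many cell types, rose by 0.15 ± 0.03 (adjusted p = 0.000191), and Acta2, smooth muscle actin, was at 0.26 ± 0.18 and did not pass (adjusted p = 0.337).

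Fibroblast and collagen genes had the highest median of any list, 0.31, with 9 of 40 called higher and 1, Pdgfra, lower. Meningeal genes had 5 of 24 called higher (median 0.05). H19, an imprinted lncRNA of fibroblasts and developing tissue, had 4.61, 6.14, 30.0, 60.2 and 60.4 TPM in the 5 Vehicle mice and 48.5 to 163 TPM in the PLX3397 mice, while the Anakinra and PLX3397+Anakinra mice lay at 58.8 to 123 and 96.8 to 224 TPM. The lowest injured mice were Vehicle J17B and J20B, the Vehicle mouse with 30.0 TPM also lay below every mouse of the other injured groups, and the other Vehicle mice lay within the ranges of the PLX3397 and Anakinra groups. The log2 fold change of H19 was 1.42 ± 0.38 (limma adjusted p = 0.0101), made up of 2.40 without Anakinra and 0.44 on top of it. Crabp1, a retinoic acid binding protein of meningeal fibroblasts, rose by 0.71 ± 0.15 (adjusted p = 0.00134), made up of 1.12 without Anakinra and 0.30 on top of it. Col1a1, the main fibrillar collagen, was at 0.67 ± 0.39 and did not pass (adjusted p = 0.241).

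The same 2 Vehicle mice stood apart in the whole list. When log2(TPM + 1) was averaged across its members and set against the mean of all injured mice, J17B lay at −1.50 and J20B at −1.31, the other Vehicle mice between −0.33 and −0.10 and the sham mice between −1.94 and −1.85. Without Anakinra, 19 of the 40 genes were called higher, and 3 when both mice were left out, a choice made after the values were seen. On top of Anakinra, none was called higher and 1 was lower (limma; median −0.09). There 2 of the 40 had an unadjusted p below 0.05, 1 of them above 0, beside 4669 of all 17286 genes. With both mice left out the main effect called 6 higher (median 0.11), H19 was at 0.83 ± 0.23 (adjusted p = 0.0139) and Col1a1 at 0.02 ± 0.19 (adjusted p = 0.957).

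**Figure D4:**
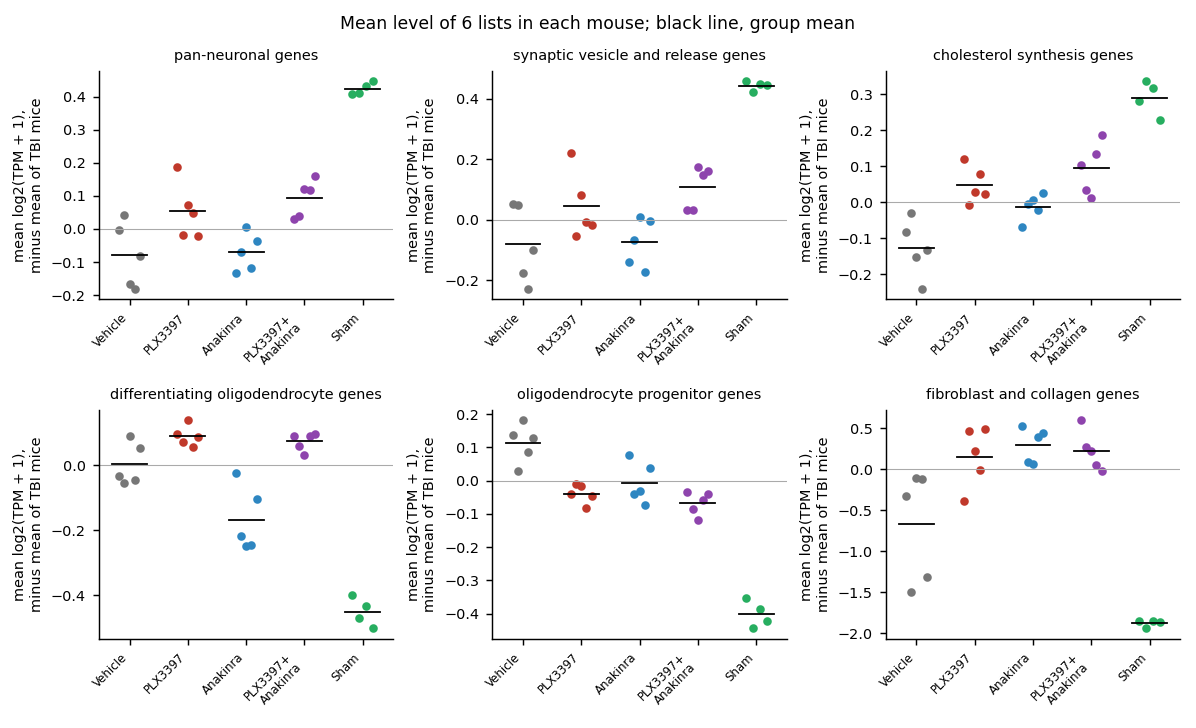
Mean log2(TPM + 1) over the members of 6 lists, minus its mean over the 20 TBI mice (vertical axes), for each mouse (points), with group means as black lines. Pan-neuronal, synaptic and cholesterol genes are highest in sham mice, and both oligodendrocyte lists and the fibroblast list are lowest in them, and Vehicle mice J17B and J20B lie at −1.50 and −1.31 in the fibroblast and collagen list.

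Globin genes fell by more than any gene of the vascular lists. Hbb-bs, a globin gene, lay between 556 and 1617 TPM without PLX3397 (median 1033), between 203 and 378 TPM with it (median 281) and between 756 and 1198 TPM in sham mice. The groups did not overlap, and the mice given PLX3397 lay below the sham mice as well. Its log2 fold change was −1.87 ± 0.15 (limma adjusted p = 5.2e-09), and of 8 genes of the list 5 were called lower and 1 higher. The choroid plexus markers Ttr and Folr1 were at 0.11 ± 0.10 and 0.00 ± 0.10 and did not pass (adjusted p = 0.501 and 0.995).

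Over all genes, the 12 higher genes with the smallest p were 9630013A20Rik, Pik3r3, Rnf122, Rassf10, Rpusd1, Cend1, Sirt2, Matn1, Lin7b, Hspa12a, Ube2e2 and Clec2l. Rnf122, a ubiquitin ligase, lay between 5.36 and 7.08 TPM without the drug and between 7.70 and 9.24 TPM with it, without overlap, and sham mice lay between 3.67 and 4.21 TPM. Its log2 fold change was 0.39 ± 0.05 (limma adjusted p = 5.4e-06). Pik3r3, a regulatory subunit of PI3 kinase, did not overlap either, with medians of 42.2 and 51.4 TPM and a log2 fold change of 0.27 ± 0.03 (limma adjusted p = 3.58e-06). Cend1, Lin7b, Hspa12a and Clec2l, which are abundant in neurons, had sham levels above those of both injured groups. The 6 lower genes with the smallest p, Selplg, Csf1r, Capn3, Cyth4, Fgd2 and Itgam, did not overlap, with log2 fold changes from −1.55 to −1.05. Selplg, a selectin ligand of microglia, fell by 1.46 ± 0.06 (limma adjusted p = 2.33e-12).

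The fold changes without and with Anakinra share no mouse and were set side by side. Their calls are not independent, since 1 fit estimated the spread from all 20 TBI mice. Without Anakinra, PLX3397 raised 483 genes (2.79%) and lowered 1110 (6.42%). On top of Anakinra it raised 619 (3.58%) and lowered 1342 (7.76%). Leaving out 1 mouse moved the higher count without Anakinra to between 274 (without Vehicle J18B) and 701 (without Vehicle J17B). The higher count on top of Anakinra moved to between 241 (without Anakinra J21) and 787 (without Vehicle J17B). The SE of a gene was 0.0772 at the median in each comparison and 0.0546 for the main effect. Of the 483 genes called higher without Anakinra, 423 (87.6%) were above 0 on top of Anakinra, where 60.1% of all genes were above 0. Of the 1110 called lower, 1077 (97.0%) were below 0, where 39.9% of all genes were.

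The neuronal members were above 0 in both comparisons for 229 of 292 genes, with medians of 0.08 without Anakinra and 0.18 on top of it. Over all genes, 6792 of 17286 were above 0 in both. Of the 292, 13 were called higher and 2 lower without Anakinra, and 41 higher and 2 lower on top of it. The synaptic vesicle list was above 0 in both for 32 of 34 genes. The cholesterol list had 7 higher calls without Anakinra and none on top of it, with medians of 0.18 and 0.12, and the differentiating oligodendrocyte list had 2 and 9, with medians of 0.08 and 0.20. None of 17286 genes had an adjusted p below 0.05 for the PLX3397 by Anakinra interaction (0%, limma), the smallest being 0.121, and 1360 genes had an unadjusted p below 0.05. These differences in count between the comparisons therefore do not show a difference in effect. The genes with the smallest interaction p included the interferon-induced genes Cxcl10, Ifi44 and Tgtp2, which were at 0.01, −0.06 and 0.03 without Anakinra and at −1.15, −1.07 and −1.01 on top of it. Genes with an interaction of the other sign were Paqr8, at −0.11 and 0.19, Rfx2, at −0.47 and 0.14, and Gm38927, at −0.67 and 0.39.

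**Figure D5:**
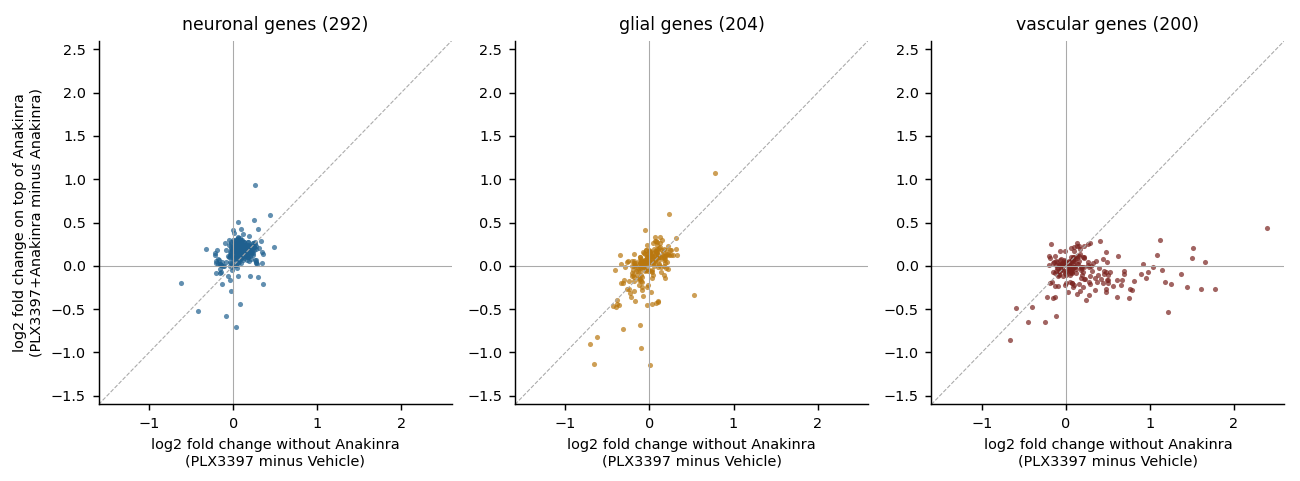
Log2 fold change of each neuronal, glial and vascular gene without Anakinra (horizontal axis, PLX3397 minus Vehicle) and on top of Anakinra (vertical axis, PLX3397+Anakinra minus Anakinra), with the line of equal change dashed. Neuronal genes sit in the upper right near the origin, and a group of vascular genes extends to the right with little change upwards.

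The direction of injury was read from Vehicle versus sham, mice whose levels did not enter the fold changes on top of Anakinra. The Vehicle mice did enter the spread behind the calls of both comparisons. Of 292 neuronal genes, 196 were lower in Vehicle than in sham mice (median −0.51 among them). Of these 196, 191 were above 0 in PLX3397+Anakinra versus Anakinra, with a median of 0.19, and 37 were called higher. Of 4762 genes of all kinds that were lower in Vehicle than in sham, 4321 were above 0 and 468 were called higher, at a median of 0.11. The 138 immune genes that were higher in Vehicle than in sham showed the opposite, with 128 called lower by PLX3397 on top of Anakinra.

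Glial and vascular genes were mostly higher in Vehicle than in sham mice. Of 4634 genes of all kinds that were higher in Vehicle, 1084 were above 0 on top of Anakinra, 34 were called higher and 1274 lower, at a median of −0.12. Of 143 such glial genes, 74 were above 0 on top of Anakinra, 11 were called higher and 13 lower. In the differentiating oligodendrocyte list, 15 of 16 genes that were higher after injury were above 0 and 6 were called higher still. In the progenitor list 6 of 21 were above 0 and 4 were called lower, not far from the shares over all genes that were higher in Vehicle. The 23 cholesterol genes that were lower in Vehicle mice were above 0 in 22 cases, with none called on top of Anakinra (limma). Of all 24 members, 11 had an unadjusted p below 0.05 there, 10 of them above 0, beside 4669 of all 17286 genes. The median of the 23, 0.12, and their share above 0 were not far from those over all genes that were lower in Vehicle (4321 of 4762, median 0.11). Of 122 vascular genes that were higher in Vehicle, 36 were above 0, none was called higher and 8 were called lower, at a median of −0.07.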

How the data were processed

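RNA was measured by polyA-selected, paired-end RNA-seq in 24 mice. The authors mapped reads to GRCm38 with CLC Genomics Workbench and deposited TPM per gene, rounded in one table and at full precision in another. Read counts are not known, so depth and counting error are unknown. The mitochondrially encoded genes are listed at 0. A filtered table holding the authors' own comparisons was not used. Groups came from the labels.

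From the deposited TPM, log2(TPM + 1) was fitted with limma 3.58.1 (R 4.3.3), with 1 mean per group and a variance trend, for the 17286 of 36333 genes whose mean over the 20 TBI libraries reached 0.5 TPM. The main effect of PLX3397 is the mean of its effects without and with Anakinra. Fold changes are on the log2(TPM + 1) scale and understate those of low genes. P-values were adjusted over all genes (Benjamini-Hochberg), and genes with an adjusted p below 0.05 are called. The fit was tested on simulated data.

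Named genes are the drug targets and defining genes of each list, up to 4 called members per list and direction by p, the 12 higher and 6 lower genes with the smallest p, and up to 3 per direction by interaction p. The members and lists were chosen with earlier results of these data known. A few named genes are not reported here. Alternatives were a pseudocount of 0.1, other filters and scalings, an additive model, all 24 libraries, no trend, the rounded table, a replicate block, single mice left out and the mice without or with Anakinra alone.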

Additional observations from a re-analysis of the deposited data

Results flagged for a closer look

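Among the 143 lists and genes with values in the text, 715 groups of 4 or 5 mice were looked at, and in 41 of them the highest or lowest mouse stood far from the others of its group (Dixon's criterion). Chance gives such a mouse in about 1 in 20 groups.

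The mean level of striatal projection neuron genes was −0.392 in PLX3397 J02, against 0.055 to 0.138 in the others. The mean level of glutamate receptor genes was 0.297 in Sham J08, against 0.362 to 0.372 in the others. The mean level of voltage-gated channel genes was 0.364 in Sham J08, against 0.416 to 0.421 in the others. The mean level of blood-brain barrier transport genes was 0.046 in PLX3397 J20, against 0.02 to 0.024 in the others. The mean level of vascular smooth muscle genes was −0.149 in PLX3397+Anakinra J17, against 0.012 to 0.069 in the others. These levels are means of log2(TPM + 1) relative to the mean of the TBI mice. Ppp1r1b, a striatal gene, was low in PLX3397 J02 as well, and the part of the dissection in this was not tested.

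In the PLX3397 group, Aldoc was 921 TPM in J01 (others 951 to 960.2 TPM), Fgd2 was 6.72 TPM in J02 (others 5.01 to 5.5 TPM), Gfap was 1576 TPM in J01 (others 1836 to 1903 TPM) and Ppp1r1b was 513 TPM in J02 (others 727 to 755 TPM). Likewise, Npy was 243.5 TPM in J02 (others 274 to 284 TPM) and Rarres2 was 45 TPM in J20 (others 33.8 to 36.6 TPM).

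In the PLX3397+Anakinra group, Aqp4 was 144 TPM in J09 (others 204 to 214 TPM), Cdh5 was 19.5 TPM in J17 (others 23.1 to 24.4 TPM), Clec2l was 58.2 TPM in J03 (others 64.4 to 65.3 TPM) and Gal was 7.84 TPM in J10 (others 4.92 to 5.66 TPM). Likewise, Kit was 23.3 TPM in J10 (others 19.7 to 20.7 TPM), Lss was 16.8 TPM in J09 (others 18.3 to 18.5 TPM), Map2 was 198 TPM in J17 (others 166 to 174 TPM) and Slc2a1 was 212 TPM in J09 (others 150.2 to 166 TPM). Likewise, Syt1 was 804 TPM in J17 (others 726 to 747 TPM), Tgtp2 was 1.9 TPM in J09 (others 2.68 to 2.91 TPM) and Thy1 was 1125 TPM in J17 (others 1075 to 1089 TPM).

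In the Anakinra group, Arc was 73.3 TPM in J22 (others 43.6 to 51.2 TPM), Fdft1 was 23.1 TPM in J05 (others 25.1 to 25.9 TPM), Fdps was 89.5 TPM in J21 (others 76.8 to 79.5 TPM) and Mfsd2a was 39.95 TPM in J21 (others 30.3 to 31.6 TPM). Likewise, Rfx2 was 3.32 TPM in J14 (others 3.85 to 4.03 TPM), Tgtp2 was 9.16 TPM in J14 (others 5.32 to 5.85 TPM) and Ust was 13.6 TPM in J21 (others 15.1 to 15.5 TPM).

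In the Sham group, Arc was 92.7 TPM in J15 (others 53.2 to 56.9 TPM), Capn3 was 4.76 TPM in J16 (others 3.95 to 4.07 TPM), Fli1 was 3.25 TPM in J08 (others 1.99 to 2 TPM) and H2-T23 was 32.2 TPM in J15 (others 35.5 to 36.2 TPM). Likewise, Matn1 was 1.13 TPM in J15 (others 0.165 to 0.284 TPM), Mobp was 687 TPM in J16 (others 521 to 549.5 TPM), Pik3r3 was 37 TPM in J15 (others 34.6 to 34.9 TPM) and Vtn was 115 TPM in J16 (others 97 to 99.2 TPM).

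In the Vehicle group, Fos was 23.3 TPM in J01B (others 16.8 to 17.9 TPM), H2-D1 was 219.5 TPM in J17B (others 283 to 307 TPM) and H2-T23 was 58.6 TPM in J17B (others 74.3 to 77.5 TPM). Likewise, Sprr1a was 17.4 TPM in J19B (others 12.2 to 13.1 TPM).

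Fos, an immediate early gene, lay on opposite sides of 0 without and with Anakinra, at −0.21 on the log2 scale without Anakinra and 0.14 on top of it, a difference of 0.36. The interaction had an adjusted p of 0.614 (limma). Paqr8 did so as well, at −0.11 and 0.19, a difference of 0.30 with an interaction adjusted p of 0.121 (limma).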

How the results depend on the processing

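The medians of the lists moved by less than the spread between mice in every fit without 1 mouse. Leaving out 1 mouse can hardly move a median by that much, so this is no measure of stability. In the same fits, 166 counts of called list members moved by more than 1.5-fold or to or from 0, and 914 did not. Recomputing TPM without the immune genes gave 972 higher genes for the main effect, 306 without Anakinra, 325 on top of Anakinra and 60 neuronal ones. Testing all genes with a mean above 0 TPM gave 369 higher genes on top of Anakinra. Fitting only the mice without Anakinra called 180 genes higher and 824 lower, with 6 neuronal and 8 glial genes higher and 7 glial and 3 vascular genes lower, from fewer mice. The log2 fold changes of Cxcl10 and Tgtp2 were then 0.0065 and 0.029, against −0.57 and −0.49 in all 20 mice. Fitting only the mice with Anakinra called 820 genes higher, 16 of them glial and 2 vascular, with Rfx2 at 0.14 against −0.16 in all 20 mice. A difference limit of 1 TPM in place of 4 TPM gave 3 higher and 316 lower genes. The cause of the changes with scaling or filter was not tested.

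Leaving out 1 mouse gave 274 to 701 higher genes without Anakinra, 241 to 787 on top of Anakinra and 1114 to 2048 for the main effect, where 1657 to 2095 were lower. The neuronal count was lowest without Vehicle J19B, at 61, and highest without Vehicle J17B, at 125. The interaction gave 0 or 1 gene, Cxcl10 without PLX3397 J01. With Vehicle J17B and J20B both left out, chosen after seeing the data, 1822 genes were higher and 2020 lower. Of calls, 45.5% were higher, and 33.0% with TPM without immune genes, 17.9% with only the mice without Anakinra.

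Mouse numbers shared by groups, such as J01B and J01, were not taken to pair the mice, since the correlations of deviations were 0.17, 0.32, −0.13 and −0.065 in the 4 pairs, and what the numbers share is not given in the sources used here. With the number as a replicate block (estimated correlation 0.248), 2008 genes were higher and 2027 lower, and 839 were higher without Anakinra.

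Since TPM keep no read count, precision at low levels rests on the spread between mice alone, and the share of immune transcripts moves with the drug.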
